A study of Arabidopsis thaliana with 16 samples.

Results

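Peaks of N6-methyladenosine (m6A) in distal 3′ UTRs were peaks whose summit lay more than 100 nt of spliced sequence after the stop codon, in the first annotated isoform of a nuclear protein-coding gene of Arabidopsis thaliana. Of 143128 peaks in 6 lists, 26168 (18.3%) met this rule, on 7444 genes of the 21637 whose 3′ UTR was longer than 100 nt. The plants were Col-0 seedlings 20 days old, whole and with no transgene in the labels, grown on agar plates at 22 °C with 12 h light and 12 h dark. The cold group was held at 4 °C for 24 h and the control group was left untreated, and nothing in the labels says whether the replicates came from separate plates or sowings, so a p-value speaks only for the spread among the samples at hand, which may be technical. Each condition had 3 lists of m6A peaks from MeRIP, in which mRNA cut to about 100 nt is pulled down with an m6A antibody, 3 mRNA libraries and 2 libraries of polysomal RNA, the RNA carried by several ribosomes at a time.

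The m6A mark is placed on adenosines of mRNA by a methyltransferase complex built around MTA and MTB, is bound by the YTH-domain proteins of the ECT family, and can be taken off by demethylases such as ALKBH10B. In plants it is known to gather near stop codons and in the 3′ UTR, the stretch between the stop codon and the poly(A) tail where proteins that set stability, localisation and translation of the mRNA bind. It is found within a short consensus, and the pentamers UGUAC and UGUAU have been described around plant m6A sites and in transcripts bound by ECT proteins.

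Sequences of 29 nt from 10 sites are shown as examples, and the motif shares below come from all distal summits. UGUAC or UGUAU is more frequent among these 10 than among the named sites. Of 59 named sites for which such a window could be cut, 26 held one of them. AT1G01710, VPS35B, TEX1 and RFC1 had a site in every list, XRN4 and CALS1 in cold lists only, SUVH9 in control lists only, and COR27, TOC1 and RCI2A are cold-regulated genes with a distal site. Each window was cut around the UGUAC or UGUAU nearest the summit, or around the nearest consensus pentamer where neither lay within 50 nt, so the presence of a motif is built into the choice. Capitals mark UGUAC or UGUAU and any of the 12 consensus pentamers, which are NNACN with a purine at each N before the A and any base but G at the end. The letters are the RefSeq sequence of TAIR10.1, written as RNA from 5′ to 3′ on the strand of the gene.
AT1G01710, chr1:266153-266181, plus strand: aauguagcacgcUGUAUGUACauuguuug
VPS35B, chr1:28477849-28477877, minus strand: accucaccugugUGUAUagaauccucguu
TEX1, chr5:22722643-22722671, minus strand: UGUACcuaaauaUGUAUugucaguauauc
RFC1, chr5:7280426-7280454, minus strand: ucgacuaaugauGAACAcuaguaugguca
XRN4, chr1:20356814-20356842, plus strand: acuuauuacauuAAACUuguuuagagucc
CALS1, chr1:1647637-1647665, minus strand: ucaaaaagaaaaUGUAUaucacuuGAACU
SUVH9, chr4:7824156-7824184, minus strand: guuuguuuuguuUGUACuguuuuguucuu
COR27, chr5:17198192-17198220, minus strand: aguggauucauuUGUACuguaAAACCcuu
TOC1, chr5:24678393-24678421, plus strand: auAAACAuauaaUGUAUuuuaucauguuc
RCI2A, chr3:1755579-1755607, minus strand: agagcguugguuUGUACuuugugugaaga

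The cold lists held 23174, 26651 and 15383 peaks, and the control lists held 23335, 27275 and 27310. Cold list 3 stood apart as the shortest list, and among the count libraries the third cold mRNA library stood apart, with 3282574 gene counts and 22.1% of them from organelles. The other mRNA libraries had 8428636 to 10965304 gene counts, of which 6.28 to 8.70% came from organelles. Polysomal libraries held 22200225 and 12984431 gene counts in cold and 20451062 and 21518021 in control. The 4 leaf markers summed to 15963 to 23203 CPM (counts scaled per library by TMM) in cold mRNA and 17780 to 21908 in control mRNA, and the 6 root markers to 126 to 227 and 106 to 179. The 5 floral markers summed to at most 3.31 CPM in every mRNA library and 3 of them stayed below 1 CPM, as did both seed markers. The labels call the material whole seedlings, and the markers of leaf and root were both present.

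Distal summits crowded close to the stop codon rather than spreading along the 3′ UTR. The median summit lay 158 nt after the stop codon, with the central quartiles at 125 and 207 nt, and 147 nt before the end of the transcript. Summits more than 200 nt after the stop codon made up 27.3% of the distal peaks, those beyond 500 nt 2.42%, and 123 peaks lay beyond 1000 nt, the farthest at 3633 nt. Per kb of transcript, summits were densest in the bin 100 to 124 nt after the stop codon in cold lists 1, 2 and 3, with 2.53, 2.65 and 2.31 summits per kb. In control list 3 the same bin was densest with 2.70 summits per kb, whereas in control lists 1 and 2 it was the bin before, 75 to 99 nt, with 2.28 and 2.84. The line at 100 nt therefore cuts the summit crowd near its top. The 2653 peaks just inside it, up to 110 nt, had a median fold percentile of 63.6, and the 2810 just outside, at 91 to 100 nt, one of 63.8.

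**Figure D1:**
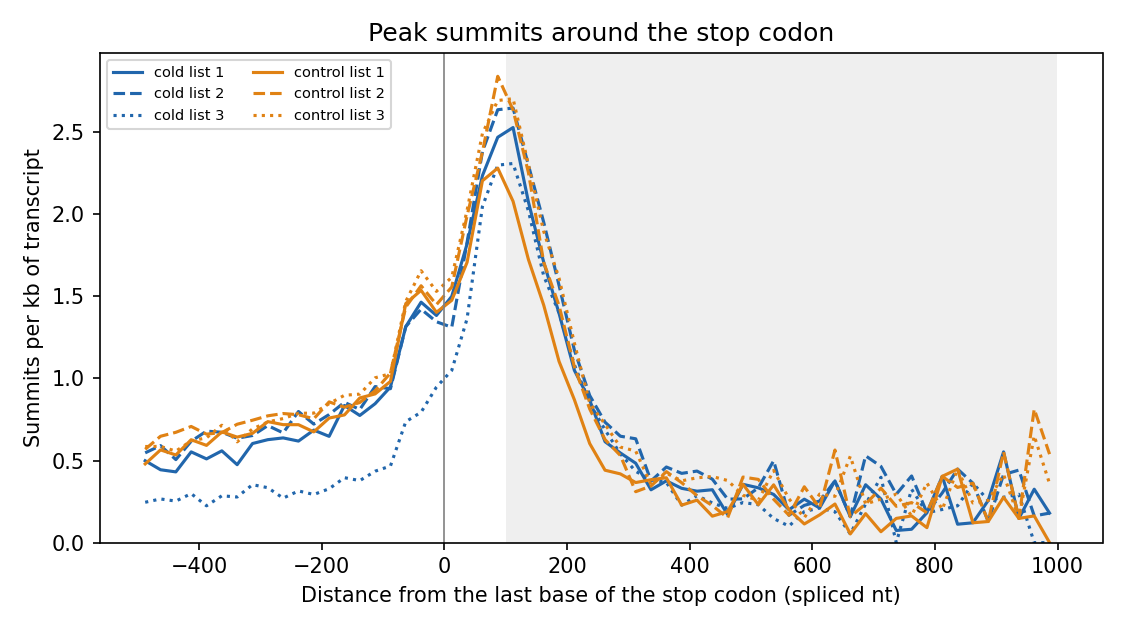
Density of peak summits (summits per kb of transcript, y axis) by distance from the last base of the stop codon (spliced nt, x axis) in 25-nt bins, one line per list, blue for cold and orange for control, with the distal region shaded. All 6 lines peak between 75 and 124 nt after the stop codon, and cold list 3 runs below the others before the stop codon.

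The median fold percentile changed little with distance up to 500 nt, while the share of peaks with a low q-value was lower from 300 nt on. The fold enrichment of a peak is the authors' own value, and it was turned into a percentile among all peaks of the same list so that lists could be set side by side. Up to 150 nt the median percentile of the 6 lists ran from 62.0 to 71.2, and beyond 300 and up to 500 nt it ran from 64.2 to 72.4. Beyond 500 nt, where 632 peaks lay, it ran from 54.2 to 69.9. The mean share of peaks with a q-value of at most 0.05 was 52.5% up to 150 nt, 54.1% up to 200 nt, 52.0% up to 300 nt, 47.0% up to 500 nt and 37.8% beyond.

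The share of peaks that were distal was higher in each cold list than in each control list, a difference that 3 lists a condition cannot take past a threshold of 0.05. Distal peaks numbered 4336, 4831 and 4172 in the cold lists, or 18.7, 18.1 and 27.1% of each list, against 3541, 4477 and 4811 in the control lists, or 15.2, 16.4 and 17.6%. Every cold list was above every control list, but cold list 3 was far above the rest. The mean share was 21.3 ± 5.03% in cold and 16.4 ± 1.22% in control (SD, n = 3 lists each), a difference of 4.92 percentage points with p = 0.1 in an exact two-sided permutation test, the smallest p that 3 against 3 lists allow. Without cold list 3 the difference was 2.02 points, the remaining lists still not overlapping. Among peaks with a q-value of at most 0.05 it was 5.89 points with p = 0.5 (exact permutation test), and there the lists of the conditions overlapped. In number, the 4172 distal peaks of cold list 3 fell between those of control lists 1 and 2, and the part of its short length in the difference was not tested. The share of peaks inside coding sequence was 43.4 ± 6.96% in cold and 49.3 ± 1.27% in control (p = 0.2, exact permutation test). Among peaks around the stop codon or after it, 44.6 ± 3.38% were distal in cold and 39.6 ± 2.44% in control (p = 0.2, exact permutation test).

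**Figure D2:**
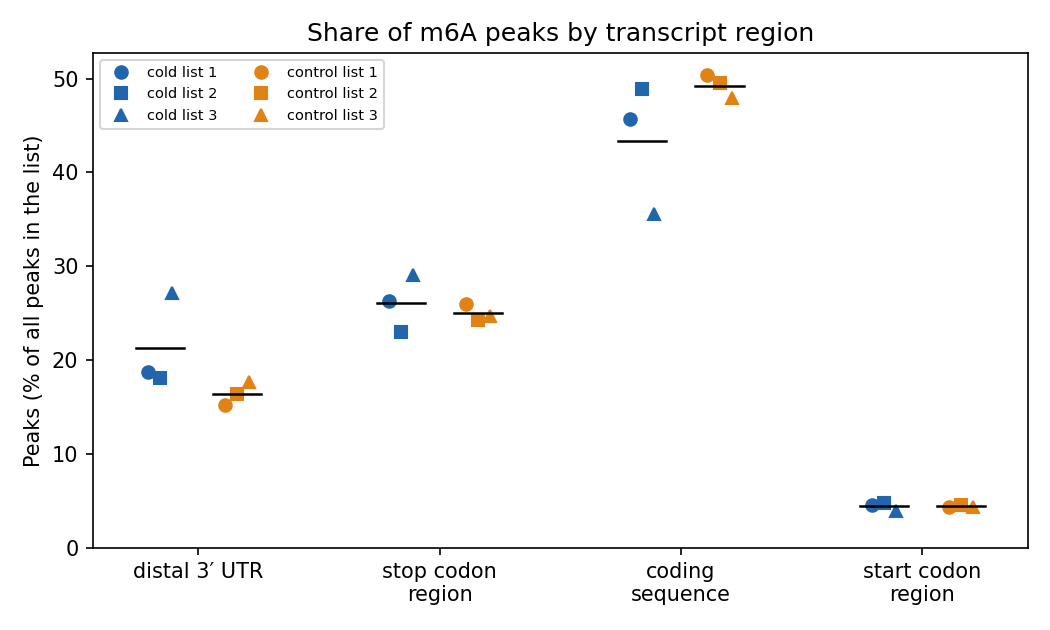
Peaks in each transcript region as a percentage of all peaks of the list (y axis), for cold (blue, left) and control (orange, right), with 1 marker shape per list number and a black line at the mean of 3 lists. Distal shares are 18.7, 18.1 and 27.1% in cold lists and 15.2, 16.4 and 17.6% in control lists.

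Where in the 3′ UTR the distal summits lay differed by less. The median distance after the stop codon was 158 ± 1.00 nt in cold and 157 ± 2.08 nt in control (SD, n = 3 lists each; p = 0.5, exact permutation test), and the median distance to the transcript end was 144 ± 3.82 nt in cold, −7.17 nt from that in control (p = 0.2, exact permutation test). For 6344 genes with a summit around or after the stop codon in all 6 lists, the strongest such summit lay at a median of 92, 98 and 106 nt after the stop codon in the cold lists and 81, 91.5 and 93 nt in the control lists. Control list 3, at 93 nt, overlapped the cold values, and the difference of 10.2 nt had p = 0.2 (exact permutation test). In 75.1% of these genes the summits of the conditions were within 25 nt of each other. The cold summit was later by more than 100 nt in 435 genes and earlier by more than 100 nt in 166.

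As a region, distal peaks were the most enriched of the 4 transcript regions compared. Enrichment did not step up at the line of 100 nt after the stop codon. Of the 2653 peaks just past the line, up to 110 nt, 50.8% had a q-value of at most 0.05. Of the 2810 just before it, at 91 to 100 nt and counted around the stop codon, 51.8% did. The median fold percentiles of these groups were 63.6 and 63.8. The region around the stop codon also takes in 100 nt before it. In the distal region, 57.9, 53.0 and 36.6% of the peaks in the cold lists and 48.7, 59.0 and 57.9% of those in the control lists had a q-value of at most 0.05. Around the stop codon, within 100 nt on either side, the shares were 45.2, 41.5 and 26.2% in the cold lists and 38.5, 43.4 and 44.8% in the control lists. The distal share was the higher one within every list, although cold list 3 was low in both regions. Over the 6 lists the mean was 52.2% for distal peaks, 39.9% around the stop codon, 21.8% inside coding sequence and 18.5% in the start codon region, and distal peaks were above each other region in 6 of 6 lists (p = 0.0312, the smallest that an exact sign-flip permutation test over 6 lists can give, adjusted p = 0.0335 over 15 tests).

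The median fold percentile gave the same order. Distal peaks had 66.8, 64.1 and 62.6 in the cold lists and 66.5, 70.7 and 68.3 in the control lists, with a mean of 66.5. The mean was 53.8 around the stop codon, 42.5 inside coding sequence and 39.5 at the start codon, each lower than the distal value in 6 of 6 lists (exact sign-flip permutation test, adjusted p = 0.0335). Among peaks with a q-value of at most 0.05 the gap shrank to 1.75 percentile points against the stop codon region, 3.85 against coding sequence and 2.86 against the start codon region, the last no longer passing the exact sign-flip test. Distal peaks were 249 nt wide at the median, as a mean over lists, and those around the stop codon 250 nt, a difference of −1.17 nt that ran from −8 to 6 nt among lists (exact sign-flip permutation test, adjusted p = 0.688). Peaks inside coding sequence were 181 nt wide and those at start codons 141 nt, both narrower in 6 of 6 lists. Among peaks with a q-value of at most 0.05 the order against coding sequence turned round, distal peaks being 24.0 nt narrower. Per kb of the genes' own sequence, distal 3′ UTRs carried 0.933 to 1.27 peaks in the 6 lists, stop codon regions 1.21 to 1.81, coding sequence 0.250 to 0.616 and start codon regions 0.0985 to 0.207, so the distal region came after the stop codon region in density while coming before it in enrichment.

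**Figure D3:**
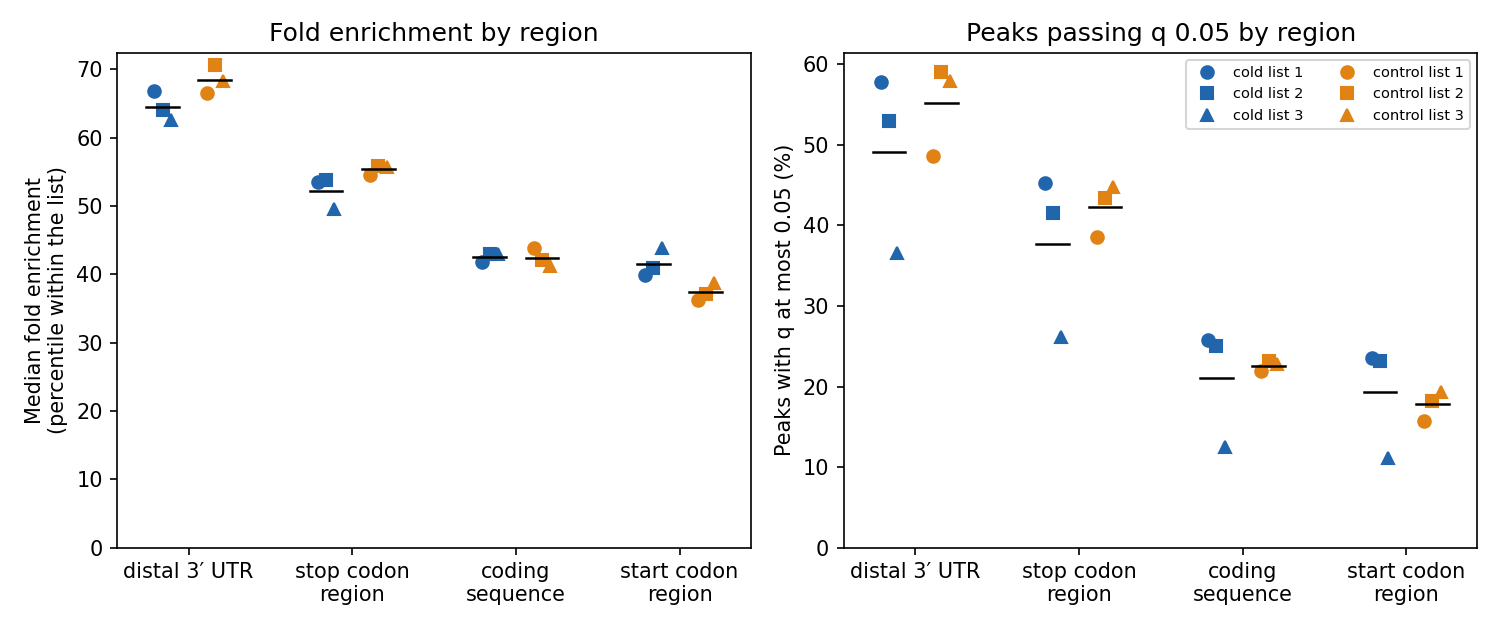
Median fold enrichment as a percentile within the list (left, y axis) and percentage of peaks with q at most 0.05 (right, y axis) by transcript region, cold in blue on the left and control in orange on the right, 1 marker shape per list number, with a black line at the mean of 3 lists. In each list the distal value, 62.6 to 70.7 on the left and 36.6 to 59.0% on the right, is above that of the other 3 regions.

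The pentamers UGUAC and UGUAU set the distal summits apart from those around the stop codon more than the m6A consensus did. Within 50 nt of the summit, on the strand of the transcript, UGUAC or UGUAU was found at 40.2, 41.2 and 39.9% of distal summits in the cold lists and 40.7, 41.4 and 41.0% in the control lists. Around the stop codon the shares were 25.6, 26.6 and 28.4% in the cold lists and 24.4, 25.8 and 26.5% in the control lists. The gap of 14.5 percentage points was seen in 6 of 6 lists (exact sign-flip permutation test, adjusted p = 0.0335). Base composition differs between these regions, with U making up 35.7 to 36.4% of the bases at distal summits and 29.5 to 31.6% around the stop codon. Against the complementary strand of the same distal windows, which held the pentamers in 23.6%, the gap was 17.1 points, again in 6 of 6 lists. In 16834 windows of the same length tiled over distal 3′ UTRs with no distal summit within 100 nt, 28.8% held UGUAC or UGUAU, and in all 28769 tiles 31.4%. Summits around the stop codon were not used in choosing these tiles, so some tiles can lie near one.

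The consensus was found in most windows of this length, on either strand. One of the 12 consensus pentamers was found at 74.9% of distal summits, 77.7% of summits around the stop codon and 83.1% of the complementary strand of the distal windows, so the share was lower at distal summits in 6 of 6 lists in both comparisons (exact sign-flip permutation test, adjusted p = 0.0335). Tiles of distal 3′ UTR with no distal summit within 100 nt held one in 67.3%. The poly(A) signal hexamer AAUAAA was found at 10.2% of distal summits, 8.45% of summits around the stop codon and 12.1% of the complementary strand. In tiles with no distal summit it was found in 10.09%. The difference of 1.77 points from the stop codon region passed the test here, but at summits more than 200 nt after the stop codon it was 0.31 points.

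The pentamers also differed in where they lay. UGUAC and UGUAU were densest 20 to 11 nt before distal summits, where 7.16 in 1000 positions started one as a mean over lists, against 3.91 at summits around the stop codon and 1.71 at 150 to 141 nt before distal summits. The 6 lists ran from 6.83 to 7.43 in the densest bin and so did not overlap the range around the stop codon, 3.72 to 4.47. Positions before a summit can fall in coding sequence, so both comparators come partly from outside the 3′ UTR. At 90 to 99 nt after the summit the density of UGUAC and UGUAU was 3.69 for distal summits and 4.36 around the stop codon. Consensus pentamers were densest 0 to 9 nt after the summit, at 17.0 in 1000 positions for distal summits and 18.4 around the stop codon. From 50 to 59 nt after the summit their density was lowest, at 9.14 for distal summits and 10.9 around the stop codon.

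**Figure D4:**
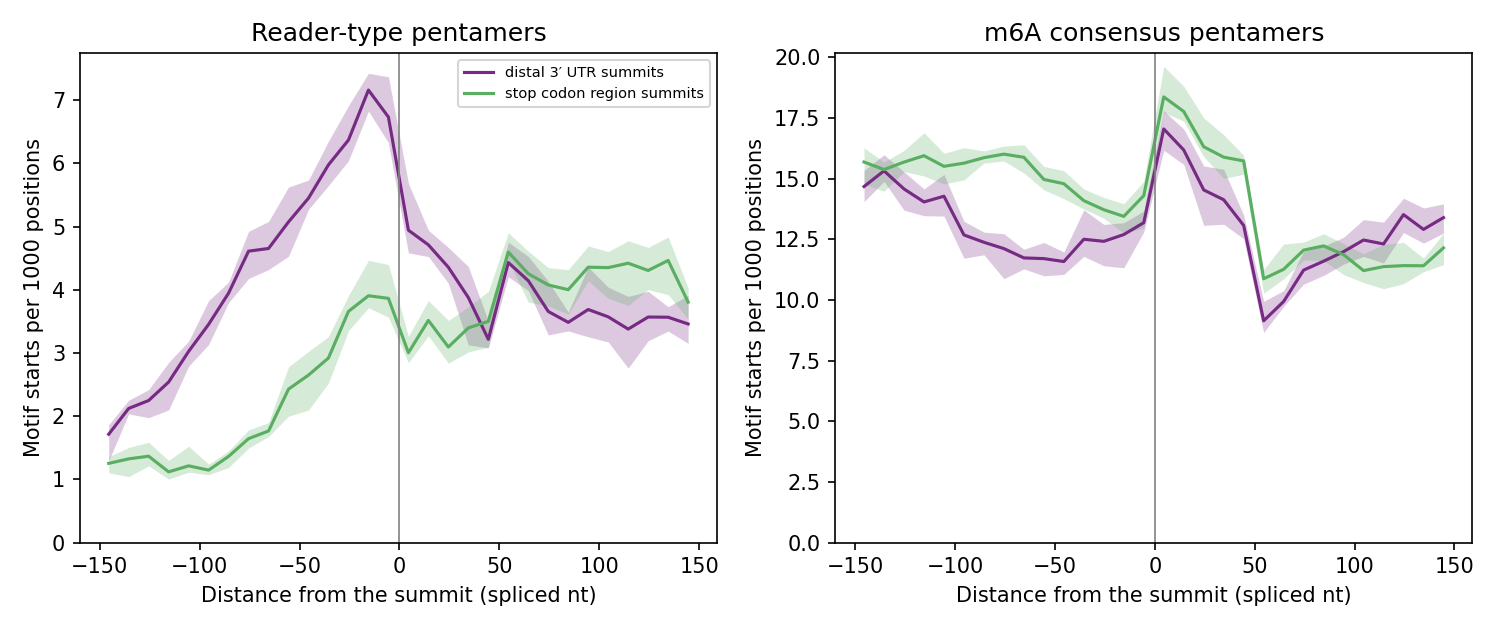
Starts of UGUAC or UGUAU (left, titled reader-type pentamers) and of the 12 m6A consensus pentamers (right) per 1000 positions (y axis) by distance from the summit (spliced nt, x axis) in 10-nt bins, for distal summits (purple) and summits around the stop codon (green). Lines are means over 6 lists and bands run from the lowest to the highest list, and the left curve for distal summits reaches 7.16 before the summit.

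When distal summits of a gene within 100 nt of each other were joined into sites, 7959 sites resulted, and 1610 of them (20.2%) were called in all 6 lists. Of the sites around the stop codon 16.2% were in all 6 lists, of those inside coding sequence 6.76% and of those at start codons 5.17%. A further 2117 distal sites (26.6%) came from a single list. A gene had 1 distal site in 6984 cases, 2 in 416, 3 in 34, 4 in 9 and 5 in 1. There were 5121 repeated sites, meaning sites called in at least 2 of 3 lists of a condition, on 5016 genes. Of these genes 44.3% also had a repeated site inside coding sequence and 20.0% one around the stop codon, while 45.2% had a repeated site in neither.

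Of the 1610 sites in all lists, 319 had a q-value of at most 0.05 in every list. The 10 with the highest mean fold percentile stood 126 to 417 nt after the stop codon, with folds of 3.50 to 8.05. The site at the top belonged to AT3G45630, which encodes a protein with an RNA recognition motif, at position 16748245 of chromosome 3, 417 nt into a 3′ UTR of 570 nt. Its folds were 7.23, 4.54 and 8.05 in the cold lists and 6.58, 5.21 and 7.47 in the control lists. AT1G01710, an acyl-CoA thioesterase II, had folds of 5.96, 4.38 and 7.43 in the cold lists and 6.05, 7.08 and 7.60 in the control lists. For both genes the lists of the conditions overlapped, as they did for RFC1, the large subunit of the clamp loader of DNA replication, with 4.82, 6.07 and 5.65 in the cold lists and 5.57, 6.24 and 8.04 in the control lists. TEX1, a subunit of the complex that couples transcription to mRNA export, had 5.29, 6.0 and 5.90 in the cold lists and 5.44, 6.07 and 4.64 in the control lists. VPS35B, a retromer subunit of endosomal sorting, had 5.84, 4.95 and 4.66 in the cold lists and 5.44, 4.59 and 6.03 in the control lists. The other 5 were ELP6 of the Elongator complex, the RNA helicase gene AT1G26370, the methionine-tRNA ligase gene AT4G13780, the carbohydrate kinase gene AT5G19150 and AT5G28220.

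Few genes carried several well-supported distal sites. WRR4, a disease resistance gene of the TIR-NBS-LRR class, had one 118 nt and one 457 nt after the stop codon. The far site had folds of 5.39, 5.04 and 6.39 in the cold lists and 3.91, 3.29 and 5.13 in the control lists, and the near site 4.83, 2.93 and 2.41 in the cold lists and 2.79, 1.98 and 2.25 in the control lists. AT1G04790, AT1G20920 and AT3G21215 also had 2 sites in at least 2 lists of both conditions. Among sites called in at least 2 lists of each condition, the farthest from the stop codon belonged to the homeodomain gene HDG7 at 2351 nt, the TIR-NBS-LRR gene AT1G31540 at 1989 nt and the DNA damage kinase gene ATM at 1710 nt. The ATM site was called in cold lists 1 and 2 with folds of 2.90 and 3.89 and in the control lists with 3.27, 5.21 and 3.19.

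Sites present in every list of one condition and no list of the other were counted where the mRNA averaged 20 CPM or more in cold and in control alike. Of 4079 distal sites, 43 were gained in cold, in 3 of 3 cold lists and 0 of 3 control lists, and 24 were lost in cold, the reverse. Over the sites of all 4 transcript regions, gained sites made up 0.427% and lost sites 1.08%, whereas for distal sites the shares were 1.05% and 0.588%. Stop codon regions had 18 gained and 49 lost of 5626, coding sequence 46 and 215 of 17185, and start codon regions 16 and 22 of 1887, so of the 4 regions the distal one alone had more gained than lost sites, a difference between regions that was not tested. The counts depended on the lists and peaks required. Without cold list 1, 2 or 3 the gained and lost distal sites numbered 122 and 45, 95 and 46, and 95 and 48, and without control list 2 or 3 they numbered 82 and 46, and 111 and 47. Without control list 1 the order turned round, at 67 gained and 70 lost, as it did among peaks with a q-value of at most 0.05, at 21 and 26. With no level required, 87 of 7959 distal sites were gained and 76 lost, beside 0.501% and 1.41% of the sites of all 4 regions.

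Most gained sites overlapped a peak of the control lists whose summit lay nearer the stop codon or before it. Of the 43 gained sites, 42 overlapped a control peak by at least 1 base on the same strand, and the summit of that control peak was around the stop codon in 27, inside coding sequence in 7, in the distal region in 6 and elsewhere in 2. In the 41 with a control summit on the same transcript, it was upstream of the cold summit in every one, with a median offset of −163 nt, where a control summit around the stop codon or inside coding sequence is upstream by definition. Of the 24 lost sites, 19 overlapped a cold peak, whose summit was upstream in 10 and offset by a median of −14 nt. That left 1 gained and 5 lost sites with no overlapping peak in the other condition, a count added after the data were seen, and these genes were named after their values were seen. The gained site was on AT3G13510, 311 nt after the stop codon, with folds of 2.71, 3.01 and 4.30 in the cold lists. The lost sites were on SAM1, HB16, EMB2024, AT4G14300 and AT5G25520. SAM1 makes S-adenosylmethionine, the methyl donor of m6A, and its site had folds of 1.5, 1.56 and 1.73 in the control lists, with close SAM paralogs that could share reads. SAM1 mRNA was 309, 347 and 247 CPM in cold and 512, 450 and 369 CPM in control (log2 fold change −0.63 ± 0.19, edgeR adjusted p = 0.0412). The mRNA of HB16, a homeobox factor, was 30.5, 34.6 and 47.2 CPM in cold and 104, 104 and 94.7 CPM in control. Both were lower in every cold library, so the loss of each peak went with a lower level whose part was not tested.

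Among the gained sites with the strongest peaks was XRN4, the cytoplasmic 5′ to 3′ exoribonuclease of mRNA decay, 213 nt after the stop codon, with folds of 4.47, 4.41 and 4.85 in the cold lists. All 3 control lists had a peak overlapping it with its summit elsewhere, and XRN4 mRNA was 49.5, 56.0 and 47.2 CPM in cold and 50.7, 52.1 and 53.9 CPM in control, overlapping (log2 fold change −0.10 ± 0.14, edgeR adjusted p = 0.614). CALS1, a callose synthase, had folds of 4.58, 3.91 and 3.53 in the cold lists, with an overlapping peak in 2 control lists. CALS1 mRNA was 129, 118 and 127 CPM in cold and 73.0, 72.6 and 86.7 CPM in control, with no overlap (log2 fold change 0.61 ± 0.14, edgeR adjusted p = 0.0128, and 0.0654 without control mRNA library 2), a call that also ended with library totals. The remaining strong gained sites, all overlapped by a peak in 3 control lists, were on the mitochondrial membrane insertase gene OXA1, the DEAD-box RNA helicase gene AT3G58510, the KH-domain gene AT1G09660 and the phosphoinositide phosphatase gene AT3G43220. AT3G58510 mRNA was 135, 118 and 126 CPM in cold and 55.3, 48.4 and 59.1 CPM in control, higher in cold (log2 fold change 1.14 ± 0.14, edgeR adjusted p = 0.00121), and AT3G43220 mRNA was lower in cold (log2 fold change −0.91 ± 0.14, edgeR adjusted p = 0.0028).

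Among lost sites, AT5G04420, a kelch repeat gene, had folds of 5.73, 5.20 and 5.74 in the control lists, and all 3 cold lists had a peak overlapping it with its summit elsewhere. AT5G04420 mRNA was 25.04, 27.2 and 27.4 CPM in cold and 24.2, 22.9 and 22.6 CPM in control (log2 fold change 0.12 ± 0.14, edgeR adjusted p = 0.555). SUVH9, a histone methyltransferase homolog of RNA-directed DNA methylation, had folds of 3.73, 3.47 and 3.45 in the control lists and an overlapping peak in 1 cold list. AT4G14300, which encodes a protein with an RNA recognition motif, lost a site 686 nt after the stop codon with folds of 3.50, 2.87 and 4.09 in the control lists and no overlapping cold peak. Its mRNA was 63.7, 63.0 and 71.6 CPM in cold and 37.3, 32.0 and 43.0 CPM in control, higher in every cold library (log2 fold change 0.74 ± 0.15, edgeR adjusted p = 0.00948), a call that ended with library totals. The others were on AT1G56500, AT3G19910 and AT2G24990, the last encoding the Rio1 kinase of small ribosomal subunit maturation. These sites lay 144, 106 and 112 nt after the stop codon, and all 3 cold lists had a peak overlapping each of them.

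Genes with a repeated distal site had a higher median mRNA level than all annotated genes tested. Their median mRNA level per length was 14.2 CPM per kb in cold and 13.2 in control, against 9.24 and 9.14 CPM per kb over all annotated genes tested. Genes with a repeated site around the stop codon and no repeated distal site were close to them, at 13.8 and 12.9 CPM per kb. The median 3′ UTR of genes with a repeated distal site was 320 nt. The rule requires a 3′ UTR over 100 nt, and over the genes tested that meet this the median was 270 nt. Of the 17717 eligible genes tested in mRNA, 28.2% had a repeated distal site. In 5 equal groups by the mRNA level per length, from low to high, the shares were 6.46, 26.1, 36.3, 38.5 and 33.7%, so the share did not go on climbing among the genes with the highest levels.

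In mRNA, 25.7% of the 19261 genes tested passed an edgeR adjusted p of 0.05 between cold and control, 13.4% higher and 12.3% lower in cold. Of the 4993 genes with a repeated distal site that were tested, 716 (14.3%) were higher and 521 (10.4%) lower in cold, with a median log2 fold change of 0.04, against −0.01 over all genes tested. The split depends on the scaling. Library totals, used instead of TMM, moved the median of all genes to −0.18 on the log2 scale. On that scale 310 were higher and 625 lower, beside 4233 called over all genes, and the median of the genes with a distal site was −0.13. Relative to all genes the shift was about the same under either scaling, the genes with a distal site lying above the median of all genes. Without cold mRNA library 1, cold mRNA library 2 or control mRNA library 2, the counts were 415 and 280, 407 and 279, and 349 and 231, higher and lower. Without the third cold mRNA library they were 741 and 474. In the same order, calls over all genes in these fits numbered 2868, 2808, 2572 and 4844. Genes with a distal site in all 6 lists had 255 higher and 119 lower of 1599 tested, with a median of 0.11. Of 5925 tested genes with a repeated site around the stop codon and no repeated distal site, 16.4% were higher and 12.5% lower. Their median, 0.04, was also above that of all genes, so the shift was not particular to genes with a repeated distal site. The 87 genes with a gained site, counted with no level required, had 24 higher and 7 lower in mRNA, and of 74 tested genes with a lost site 7 were higher and 25 lower. Peak calling needs reads from the transcript, and the part of the mRNA level in these gains and losses was not tested.

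The largest rises among genes with a repeated distal site included cold and clock genes. COR27, a cold-induced regulator tied to the circadian clock, had 75.8, 126 and 67.8 CPM of mRNA in cold and 0.517, 0.163 and 0.157 CPM in control (log2 fold change 8.30 ± 0.46, edgeR adjusted p = 6.12e-05), a fitted fold that depends on the prior count where the control is so low. Its distal site, 138 nt after the stop codon, was in all cold lists with folds of 2.52, 2.39 and 3.11 and in no control list. ABF1, a bZIP factor that binds abscisic acid response elements, had 74.0, 73.0 and 100.1 CPM in cold and 1.03, 1.72 and 4.32 CPM in control (log2 fold change 5.0 ± 0.45, edgeR adjusted p = 0.000758). For both genes every cold mRNA library was far above every control mRNA library. In polysomal RNA, COR27 had 130 and 107 CPM in cold and 35.9 and 0.487 CPM in control. ABF1 had 104 and 143 polysomal CPM in cold and 68.6 and 28.2 CPM in control. Neither polysomal change passed (edgeR adjusted p = 0.392 for COR27 and 0.109 for ABF1). BBX8, a B-box zinc finger protein, and AT4G26670, annotated as a mitochondrial import translocase family protein, rose by 4.24 ± 0.33 and 3.85 ± 0.18 on the log2 scale (edgeR adjusted p = 0.000209 and 1.64e-05). RCI2A, a small membrane protein of cold and salt stress, had 361, 397 and 288 CPM in cold and 20.9, 19.0 and 23.1 CPM in control (log2 fold change 3.98 ± 0.19, edgeR adjusted p = 1.64e-05). TOC1, the evening repressor at the core of the clock, had 199, 184 and 230 CPM in cold and 17.2, 13.6 and 12.4 CPM in control (log2 fold change 3.75 ± 0.18, edgeR adjusted p = 1.64e-05). The RCI2A site was in 1 cold list and 2 control lists at folds of 1.59 to 1.87, and the TOC1 site in 1 cold list at 2.60 and 2 control lists at 3.79 and 2.63. The BBX8 site was in 3 cold lists and 0 control lists, the ABF1 site in 3 cold lists and 1 control list, and the AT4G26670 site in 2 lists of each condition. A repeated site needs lists of 1 condition only, so genes that rise can enter through the cold lists alone. In polysomal RNA the change passed for RCI2A (edgeR adjusted p = 0.0383). It did not pass for BBX8, AT4G26670 or TOC1 (edgeR adjusted p = 0.0814, 0.268 and 0.206).

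The largest falls were those of SIS, APL3, AT5G21100, FBH3, MIPS2 and RXW8. SIS had 2.74, 4.51 and 4.19 CPM in cold and 41.5, 59.2 and 13.1 CPM in control (log2 fold change −3.40 ± 0.61, edgeR adjusted p = 0.0104), and its site was in 3 control lists and no cold list. APL3, a large subunit of the ADP-glucose pyrophosphorylase of starch synthesis, had 14.2, 19.4 and 13.7 CPM in cold and 38.2, 79.6 and 218 CPM in control (log2 fold change −2.88 ± 0.68, edgeR adjusted p = 0.0294). The control libraries of both genes were widely spread, and the APL3 call ended in 4 of 6 fits that left out 1 library, those without cold mRNA library 1, 2 or 3 or control mRNA library 2, with adjusted p from 0.0696 to 0.0958. MIPS2, an inositol phosphate synthase, had 12.1, 27.4 and 36.2 CPM in cold and 139.9, 138 and 206 CPM in control (log2 fold change −2.79 ± 0.39, edgeR adjusted p = 0.00356). The ascorbate oxidase gene AT5G21100, FBH3, a bHLH activator of the flowering gene CONSTANS, and RXW8 fell by 2.86 ± 0.27, 2.84 ± 0.40 and 2.61 ± 0.35 on the log2 scale. The RXW8 site was called in all 6 lists, the FBH3 site in 3 cold and 2 control lists and the MIPS2 site in 2 cold and 3 control lists. The APL3 and AT5G21100 sites were each called in 0 cold and 2 control lists, so 3 of the 6 sites were called in no cold list. These 3 genes entered the set through the control lists alone, where their mRNA was high. The tally therefore cannot tell a lost site from a lower mRNA level. In 2 cold lists a peak with its summit elsewhere overlapped the APL3 site, while the SIS and AT5G21100 sites had no overlapping cold peak.

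**Figure D5:**
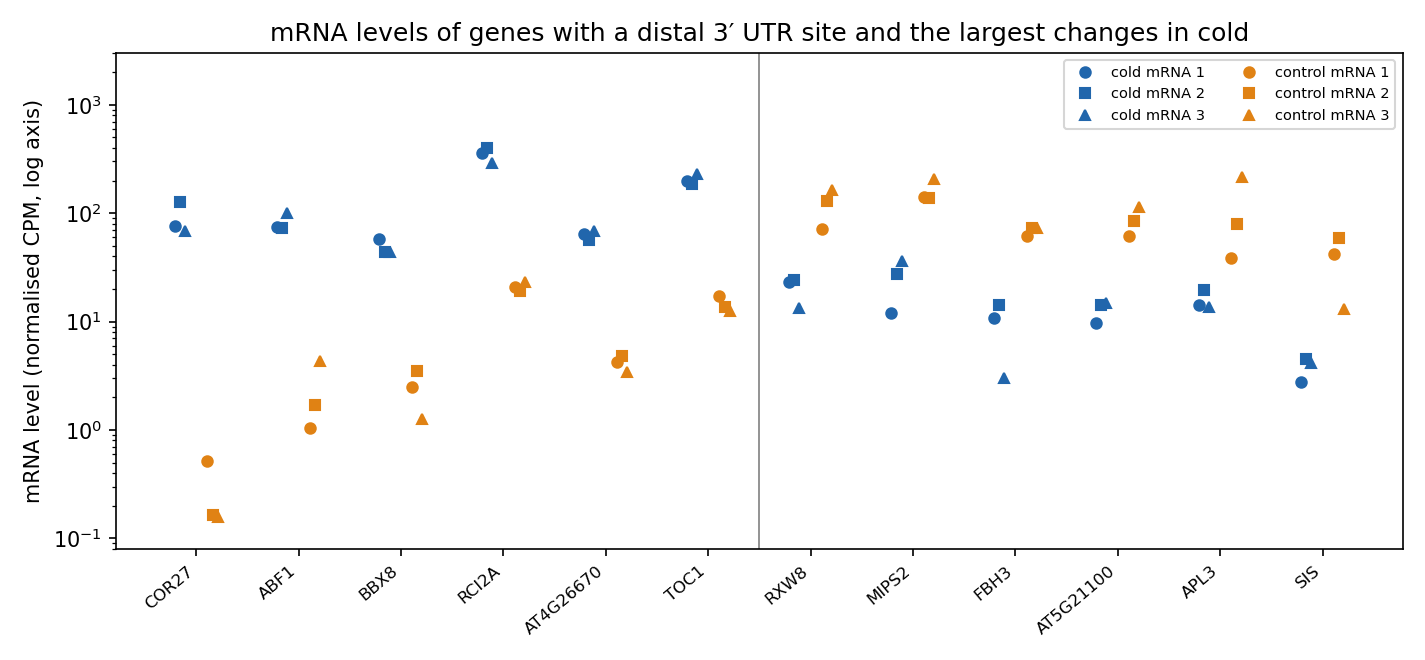
mRNA level (normalised CPM, log axis) in each library for the 6 genes with a repeated distal site that rose most (left of the grey line) and the 6 that fell most (right) in cold, cold in blue to the left of control in orange, 1 marker shape per library number. For every gene the 3 cold libraries lie on one side of the 3 control libraries.

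In polysomal RNA, 7.82% of the 19239 genes tested passed the threshold, 3.87% higher and 3.95% lower in cold. Of 4992 genes with a repeated distal site, 204 (4.09%) were higher and 139 (2.78%) lower, with a median log2 fold change of 0.10, against −0.02 over all genes tested. With 2 libraries a condition these counts moved widely, to 478 and 246 without cold polysomal library 2, 19 and 27 without control polysomal library 1, and 37 and 49 without control polysomal library 2. With library totals they were 160 higher and 166 lower, beside 1443 called over all genes. The largest rise was that of the glycosyltransferase gene AT2G16890, with 70.2 and 55.2 CPM in cold and 4.57 and 4.68 CPM in control (log2 fold change 3.75 ± 0.25, edgeR adjusted p = 0.0133). G3Pp4, a glycerol-3-phosphate permease, had 129 and 198 CPM in cold and 15.8 and 19.5 CPM in control (log2 fold change 3.20 ± 0.31, edgeR adjusted p = 0.017). Each of these genes was many times higher in both cold libraries. FIB2, the fibrillarin of ribosomal RNA methylation, had 325 and 107 CPM in cold and 27.1 and 22.6 CPM in control (log2 fold change 3.11 ± 0.54, edgeR adjusted p = 0.0318, and 0.0837 and 0.0883 without either control library). RAP2.1, an AP2 repressor downstream of the CBF cold regulators, had 38.5 and 59.4 CPM in cold and 5.90 and 5.46 CPM in control (log2 fold change 3.10 ± 0.29, edgeR adjusted p = 0.017). The falls were led by the beta-galactosidase gene BGAL4, with 9.97 and 5.56 CPM in cold and 165 and 102 CPM in control (log2 fold change −4.09 ± 0.41, edgeR adjusted p = 0.0174), followed by AT2G32150, BBX27 and AT1G09390.

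The change in polysomal RNA beyond that in mRNA, tested as an interaction, rarely passed for these genes. Of all 20001 genes tested 0.285% passed, 0.065% higher and 0.22% lower, and of 4995 genes with a repeated distal site 2 were higher and 4 lower, with 610 at an unadjusted p under 0.05, beside 2485 of all 20001 genes. With library totals 0 were higher and 2 lower, beside 35 called over all genes. RD19, a papain-type protease of drought and cold stress, had 330 and 525 polysomal CPM in cold and 1285 and 812 in control, while its mRNA was 261, 324 and 507 CPM in cold and 114, 97.4 and 97.4 in control, so polysomal RNA was lower and mRNA higher in every cold library. The interaction for RD19 was −3.11 ± 0.46 on the log2 scale (edgeR adjusted p = 0.0247). RCI2A, AT4G26670 and AT4G26370, a NusB-domain antitermination protein, had interactions of −2.22 ± 0.36, −3.13 ± 0.46 and −2.04 ± 0.31 (edgeR adjusted p = 0.0363, 0.0253 and 0.0253). In each of the 3 both RNA fractions had a higher mean in cold, the mRNA by more. AT4G32920, a glycine-rich protein, had 35.4 and 39.4 polysomal CPM in cold and 25.3 and 23.7 in control, with mRNA of 44.9, 42.9 and 42.6 CPM in cold and 72.7, 87.2 and 112 in control (interaction 1.67 ± 0.27, edgeR adjusted p = 0.0355). These calls were fragile: leaving out 1 of 10 libraries ended them in 5 fits for RD19, 7 for AT4G26670 and AT4G26370, and 8 for RCI2A and AT4G32920, with adjusted p between 0.0504 and 0.155. All 5 calls ended without cold mRNA library 3, the mRNA library that stood apart. They also all ended without cold polysomal library 1, and all 5 without control mRNA library 2. BGLU6, below the level set for naming and named after its values were seen, was the remaining one, with an interaction of 2.51 ± 0.44 (edgeR adjusted p = 0.0498).

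Over all genes with a 3′ UTR over 100 nt, 23.2% had a repeated distal site, and 28.2% of those tested in mRNA. Of 24 genes that make, read or remove m6A, all with a 3′ UTR over 100 nt, 8 (33.3%) had one: the writer genes MTB and VIR, the demethylase genes ALKBH9C and ALKBH10B, and the reader genes ECT1, ECT5, ECT6 and ECT7. MTB (AT4G09980) had a site 130 nt after the stop codon, called in the cold lists with folds of 2.76, 2.36 and 2.83 and in control lists 1 and 3 with 2.98 and 2.57. MTB mRNA was 57.0, 51.9 and 71.9 CPM in cold and 30.7, 31.5 and 34.1 CPM in control, higher in cold (log2 fold change 0.82 ± 0.15, edgeR adjusted p = 0.00624). ECT1 had a site in cold lists 1 and 3 with folds of 5.20 and 6.16 and in no control list, although all 3 control lists had a peak overlapping it with its summit elsewhere. ECT1 mRNA was 58.4, 62.1 and 48.3 CPM in cold and 35.9, 31.3 and 31.1 CPM in control (log2 fold change 0.72 ± 0.16, edgeR adjusted p = 0.0124, and 0.055 and 0.054 without cold mRNA library 2 or control mRNA library 2). MTB and ECT1 were the members of the 8 called higher in mRNA, and none was called lower. Over all genes tested in mRNA, 13.4% were called higher and 12.3% lower. With library totals the ECT1 and ECT2 calls ended. The ALKBH10B site was in control lists 1 and 3 at 1.82 and 2.39, and 2 cold lists had a peak overlapping it with its summit elsewhere. MTA and ECT2 each had a distal peak in 1 cold list, at folds of 2.42 and 1.34. ECT2 mRNA was 568, 667 and 637 CPM in cold and 413, 377 and 407 CPM in control, higher in cold (log2 fold change 0.57 ± 0.14, edgeR adjusted p = 0.0193), a call that ended without cold mRNA library 2 or control mRNA library 2.

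Among the lists of other functions, beside the same 23.2% of all eligible genes, the share with a repeated distal site ran from 58.8% of the eligible genes of mRNA decay and 3′ UTR binding, 20 of 34, to 3.70% of photosynthesis genes, 1 of 27. The 20 decay and binding genes, which included PUM2, PUM3, CCR4A, UPF1, UPF3 and LSM1A with a site in all 6 lists, had a median log2 fold change of 0.16 in mRNA. Of 26 eligible genes of mRNA 3′ end processing, 11 had a repeated site, and 1 of them, CSTF64 of the cleavage stimulation factor, was higher in cold, with 19.3, 20.6 and 17.1 CPM against 7.34, 9.15 and 10.5 CPM in control (log2 fold change 1.02 ± 0.20, edgeR adjusted p = 0.0071). The poly(A) polymerase gene PAPS2 had 27.4, 28.6 and 32.4 CPM in cold and 18.3, 17.7 and 23.1 CPM in control, with no overlap, and did not pass (log2 fold change 0.50 ± 0.16, edgeR adjusted p = 0.0546).

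Of 33 cold regulators, 9 (27.3%) had a repeated distal site, near the 23.2% of all eligible genes, and RAP2.1 alone of them was called, higher in mRNA (log2 fold change 2.17 ± 0.27, edgeR adjusted p = 0.00126). ICE2, an activator upstream of the CBF genes, had a site in all 6 lists with folds of 3.30, 2.02 and 1.86 in the cold lists and 1.86, 2.62 and 2.45 in the control lists. Of 25 cold-induced COR and LEA genes, 3 (12.0%) had one, of which RCI2A and COR27 rose and RCI2B had a log2 fold change of −0.18. Of 24 eligible clock genes, 9 (37.5%) had one, with TOC1 and PRR7 higher and LNK1 and RVE8 lower in mRNA. Over all genes tested in mRNA, 13.4% were higher and 12.3% lower. PRR7 and RVE8 passed narrowly, with log2 fold changes of 1.33 and −0.79 (edgeR adjusted p = 0.0475 and 0.047). LNK1 (AT5G64170), a coactivator of morning clock factors, had 146, 116 and 87.9 CPM in cold and 171, 217 and 249 CPM in control (log2 fold change −0.93 ± 0.22, edgeR adjusted p = 0.0174, and 0.0548 and 0.0654 without cold mRNA library 2 or control mRNA library 2). The photosynthesis gene with a site was PSBQ2 of photosystem II, whose folds of 1.5 and 1.38 in cold lists 1 and 2 and 1.36 in control list 2 had a mean percentile of 3.09, at mRNA levels of 357, 376 and 556 CPM in cold and 455, 607 and 553 CPM in control. Of the marker genes of leaf, floral organs and seed none had a repeated distal site. Both seed markers and 3 of the 5 floral markers stayed below 1 CPM in every mRNA library, too low for the lack of a site to be informative. Of the root markers PHO1, a phosphate exporter, had a site, with mRNA of 55.8, 62.1 and 57.1 CPM in cold and 81.9, 85.2 and 94.4 CPM in control (log2 fold change −0.65 ± 0.14, edgeR adjusted p = 0.0102). In whole seedlings, fewer cells of a type and less RNA per cell cannot be told apart.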

How the data were processed

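The authors deposited 1 peak list for each MeRIP sample and gene counts for each library. STAR, HTSeq, MACS2 and the build TAIR10 are named, without versions or settings, per the submitters' processing notes, and the annotation release behind the counts is not given in the sources used here. As their values show, the deposited peak lists give a fold enrichment (a ratio at the summit over the caller's background), −log10 p- and q-values, a score and a summit for each peak, and the deposited count tables give whole-number read counts per gene.

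Summits were placed on first isoforms of the RefSeq TAIR10.1 annotation, and no summit lay past a chromosome end of that assembly. The strand in the peak names was read as opposite to the gene, because 94.6 to 95.8% of summits fell in an exon of an opposite-strand gene and 3.42 to 4.66% in one of the same strand. Of the distal summits, 52 lay in 2 genes and 337 (1.29%) in the coding sequence of another isoform. Counts on rows that name no gene (68.83 to 93.4% of reads in mRNA libraries, mostly not uniquely placed) were left out. The highest share was that of cold mRNA library 3. In polysomal libraries such rows held 6.21 to 7.19% of reads, and organelles gave 0.153 to 0.437% of gene counts. The interaction sets these unlike kinds of library against each other, and the part of this difference in its calls was not tested. At 3282574 to 22200225 gene counts, counting error is small for genes at high levels, where the number of libraries limits the precision. It is not small for genes at low levels, such as COR27 at 0.157 to 0.517 CPM in control mRNA.

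Counts were tested with edgeR 4.0.16 (quasi-likelihood, robust, TMM, filterByExpr) in R 4.3.3 on the whole table, with Benjamini-Hochberg adjustment at 0.05, with DESeq2 1.42.0 as an alternative. The ± beside a log2 fold change is its standard error. Differences between regions used exact sign-flip permutation tests over 6 lists, adjusted over 15 tests, and differences between conditions exact permutation tests, all two-sided. The fits were tested on simulated data. The members and gene lists were chosen with earlier results of these data known. Named genes were the 10 strongest sites in all lists, up to 6 gained and 6 lost, the largest changes in each comparison at a mean log2 CPM of at least 4, up to 2 per list by mRNA p, and the genes with most or farthest sites. Alternatives changed the q limit, distance (200 nt), window (25 nt), chaining (50 nt), CPM floor, normalization, filter, test, replicate block and each library. A result that this rule names is not reported here.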

Additional observations from a re-analysis of the deposited data

Results flagged for a closer look

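For 6 genes with a repeated distal site, the change from control to cold differed between polysomal RNA and mRNA by a test of the interaction (edgeR, adjusted over all genes tested). The polysomal change was below the mRNA change for RD19 by −3.11 on the log2 scale, for AT4G26670 by −3.13, for RCI2A by −2.22 and for AT4G26370 by −2.04. It was above the mRNA change for AT4G32920 by 1.67 and for BGLU6 by 2.51. In RD19 polysomal RNA was lower and mRNA higher in every cold library than in every control library, and in AT4G32920 and BGLU6 polysomal RNA was higher and mRNA lower, while in the other 3 both fractions had a higher mean in cold. The polysomal change alone passed for RCI2A and for none of the other 5. BGLU6, a beta-glucosidase, had 5.08 and 4.17 polysomal CPM in cold and 2.62 and 2.19 in control, with mRNA of 8.32, 4.23 and 4.19 CPM in cold and 15.6, 19.0 and 16.6 in control. The BGLU6 site was in 3 control lists and no cold list.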

How the results depend on the processing

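The share of distal peaks, their place in the order of q-values and fold percentiles against the stop codon region and coding sequence, and the excess of UGUAC and UGUAU kept their direction under every alternative run. Tests over 5 lists cannot go below 0.0625, so no difference between regions could pass with a list left out. Among peaks with q at most 0.05, distal peaks were −24.0 nt against coding sequence in width and 2.86 percentile points above start codons (adjusted p = 0.0682), the AAUAAA difference from the stop codon was 1.12 points, gained sites numbered 21, and genes with a repeated site counted 432 higher and 258 lower in mRNA, 123 and 67 in polysomal RNA and 0 and 1 for the interaction. The AAUAAA difference was 0.31 points more than 200 nt after the stop codon and 0.72 in windows of 25 nt each side. With no expression floor 87 sites were gained and 76 lost, of which 10 and 35 had no overlapping peak of the other condition. With the floor, 1 and 5 had none, and 13 genes were lost when genes were counted in place of sites. Library totals gave 310 higher in mRNA, beside 4233 called over all genes, and 0 and 2 for the interaction, beside 35. DESeq2 gave 528 and 276 in polysomal RNA, beside 3178 called over all genes, and 47 and 61 for the interaction, beside 516. With no filter there were 341 and 210 in polysomal RNA, beside 2296, and 7 lower for the interaction, beside 69. The cause of these shifts was not tested, apart from the fewer peaks or genes that a stricter limit leaves.

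Leaving out 1 list or library gave ranges. Distal minus other percentile was 12.3 to 13.2 for the stop codon, 23.1 to 24.9 for coding sequence and 25.7 to 28.7 for start codons. The q share differed by 11.6 to 12.7, 29.2 to 31.6 and 32.2 to 35.3 points and the width by −2.6 to 0.2, 62.0 to 76.4 and 102.8 to 117 nt, the width against the stop codon turning to 0.2 without cold list 3. Against the stop codon and the complementary strand, UGUAC or UGUAU differed by 14.1 to 15.1 and 17.0 to 17.4 points, the consensus by −3.0 to −2.67 and −8.40 to −8.08, and AAUAAA by 1.70 to 1.90 and −2.03 to −1.77. Gained sites numbered 67 to 122 and lost sites 45 to 70. Genes called in mRNA numbered 349 to 741 higher and 231 to 474 lower, in polysomal RNA 19 to 478 and 27 to 246, and for the interaction 0 to 3 and 0 to 14. Log2 fold changes in mRNA that turned sign, none of them called, were those of AT1G09660 (−0.05, and −0.16 to 0.085 without 1 library, positive without cold mRNA library 3 or control mRNA library 1), ALKBH10B (0.06, −0.067 to 0.138 without 1 library, negative without cold mRNA library 3, and −0.129 with library totals) and AT5G04420 (0.12, and −0.051 with library totals).

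Replicate numbers did not pair the mRNA samples, whose same-number deviations correlated at −0.042, −0.069 and 0.252, while the 2 polysomal pairs, too few to decide, correlated at 0.462. With a replicate block the distal share differed by 4.92 points. Genes with a repeated site called in mRNA then numbered 603 higher and 429 lower, beside 4376 called over all genes. In polysomal RNA they numbered 661 and 438, beside 4508 over all genes, which was 1504 without the block. For the interaction they numbered 8 and 11, beside 123 over all genes.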
